A study of Mus musculus with 6 samples.

Results

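The Rab genes encode the largest family of small GTPases of membrane traffic, and their expression was set against lipid content in microglia of the mouse hippocampus. A gene was taken as a member if its symbol was Rab, a number and at most 1 further letter, which gave 56 of the 15912 genes in the deposited table. All libraries came from male C57BL/6 mice of 3 months that had been given 1 mg/kg lipopolysaccharide (LPS, an inflammatory part of bacterial envelopes) into the peritoneum for 4 days. Tissue was taken 24 h after the final dose, and each sample pooled the hippocampi of 2 animals. About 10000 live CD11b-positive cells with low CD45, as microglia are commonly sorted, were collected per library, and BODIPY, which stains neutral lipid, divided them into a low gate (BODIPY-low, 3 libraries) and a high gate (BODIPY-high, 3 libraries). Both gates had received LPS, and mice given saline were not analysed here. The labels number the samples of each gate 1 to 3 without saying whether these are separate pools of animals, and a p-value here reflects no more than the variation among the samples at hand.

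A Rab protein is a molecular switch. Exchange factors load it with GTP, the active form recruits effectors (tethers, motors and kinases) to a membrane, GTPase-activating proteins end the signal, and the inactive lipid-anchored protein returns through the cytosol. Each Rab marks a compartment: Rab5 proteins the early endosome, Rab11 proteins the recycling endosome, Rab7 the late endosome and lysosome, Rab3 and Rab27 proteins regulated secretion, Rab1 and Rab2 proteins the traffic between endoplasmic reticulum (ER) and Golgi. Rab18 is a Rab of the lipid droplet surface and the ER and is known for its part in contacts between them. In microglia these pathways serve phagocytosis, antigen handling, cytokine release and the degradation of engulfed material.

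The recovered depth was 34899413 to 36518323 reads in the BODIPY-low libraries and 37688682 to 39220494 in the BODIPY-high libraries, of which 140212 to 164460 reads fell on the Rab genes. Where no read was counted, up to 3 reads remain possible, worth 2.76 to 3.29 normalized counts. Such limits cover counting error only, since PCR copies are not independent molecules. The 8 microglial markers checked, such as Tmem119 and P2ry12, were detected in all libraries and summed to 2159478 to 2537928 normalized counts in BODIPY-low and 1706516 to 2338828 in BODIPY-high, with a lower mean in BODIPY-high for all 8 and none past the test. Markers of other cells differed between the gates: 7 of 7 choroid plexus markers and 9 of 11 markers of border-associated macrophages, the macrophages of meninges and vessels, passed the test as higher in BODIPY-high. So did 4 of 8 tested astrocyte markers, 2 of 7 oligodendrocyte markers and 2 of 4 markers of oligodendrocyte precursors, while none of the neuronal, endothelial, monocyte or neutrophil markers did. The summed astrocyte markers ran from 10921 to 11909 normalized counts in BODIPY-low and from 12768 to 14595 in BODIPY-high. The oligodendrocyte sum was 7192 to 7312 against 8302, 8532 and 14606, and the precursor sum 4.13 to 29.6 against 89.1, 82.8 and 336, both highest in BODIPY-high library 3. The summed choroid plexus markers were 176, 309 and 1575 normalized counts in BODIPY-low libraries 1, 2 and 3 against 29201, 38310 and 34409 in BODIPY-high. The summed macrophage markers were 3391, 2623 and 7655 against 23099, 30472 and 86138, with the highest sum in library 3 of each gate. In these bulk samples, fewer cells of a type and less RNA per cell cannot be told apart.

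Across the table, 259 of 12767 tested genes (2.03%) were called higher in BODIPY-high and 3 (0.0235%) lower, at an adjusted p under 0.05 (limma on log2(normalized count + 1), Benjamini-Hochberg adjustment over all tested genes). A gene was tested when it had at least 10 normalized counts in at least 3 of the 6 libraries. Of the 56 Rab genes, 47 were tested. In this fit, which has no term for the pairing of same-numbered libraries, Rab15 was the only member called, as higher. No member was called lower. With 0 reads in BODIPY-low, Rab15 met the filter through the BODIPY-high libraries alone and so had to differ, and no other tested member was without a BODIPY-low value at the filter. Rab15 and Rab7b were called with the library number as a block (all genes: 4.37% higher, 0.462% lower) and with DESeq2 on recovered reads (3.63% and 0.251%), Rab15 alone with edgeR (1.74% and 0.00783%), and none of these called a member lower. Without adjustment, 3 members had a p under 0.05 as higher and 0 as lower, against 8.03% and 2.27% of all tested genes. With the library number as a block, 4 members were higher and 2 lower at that p. Of the 12767 tested genes 1476 were higher and 802 lower with the block. The libraries of the gates did not overlap for 3 tested members that were higher (Rab15, Rab7b and Rab36) and for 1 that was lower (Rab20), where 10.4% of all tested genes were higher and 5.95% lower without overlap. Over the tested members the median log2 change, BODIPY-high minus BODIPY-low, was -0.02, beside -0.004 for all tested genes, and 22 of 47 members had a change above 0, where 49.2% of all tested genes had. The median size of the log2 change without regard to sign was 0.102 for the members and 0.156 for all tested genes, and among genes with a mean of at least 100 normalized counts it was 0.0901 for members and 0.124 for all. Of the 40 tested members with such a mean, none was called in the fit without a block. The 95% confidence interval of the log2 change lay within 0.5 of 0 for 30, and it lay within 1 of 0 for 36. These intervals, like all given here, come from the fit without a block.

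**Figure D1:**
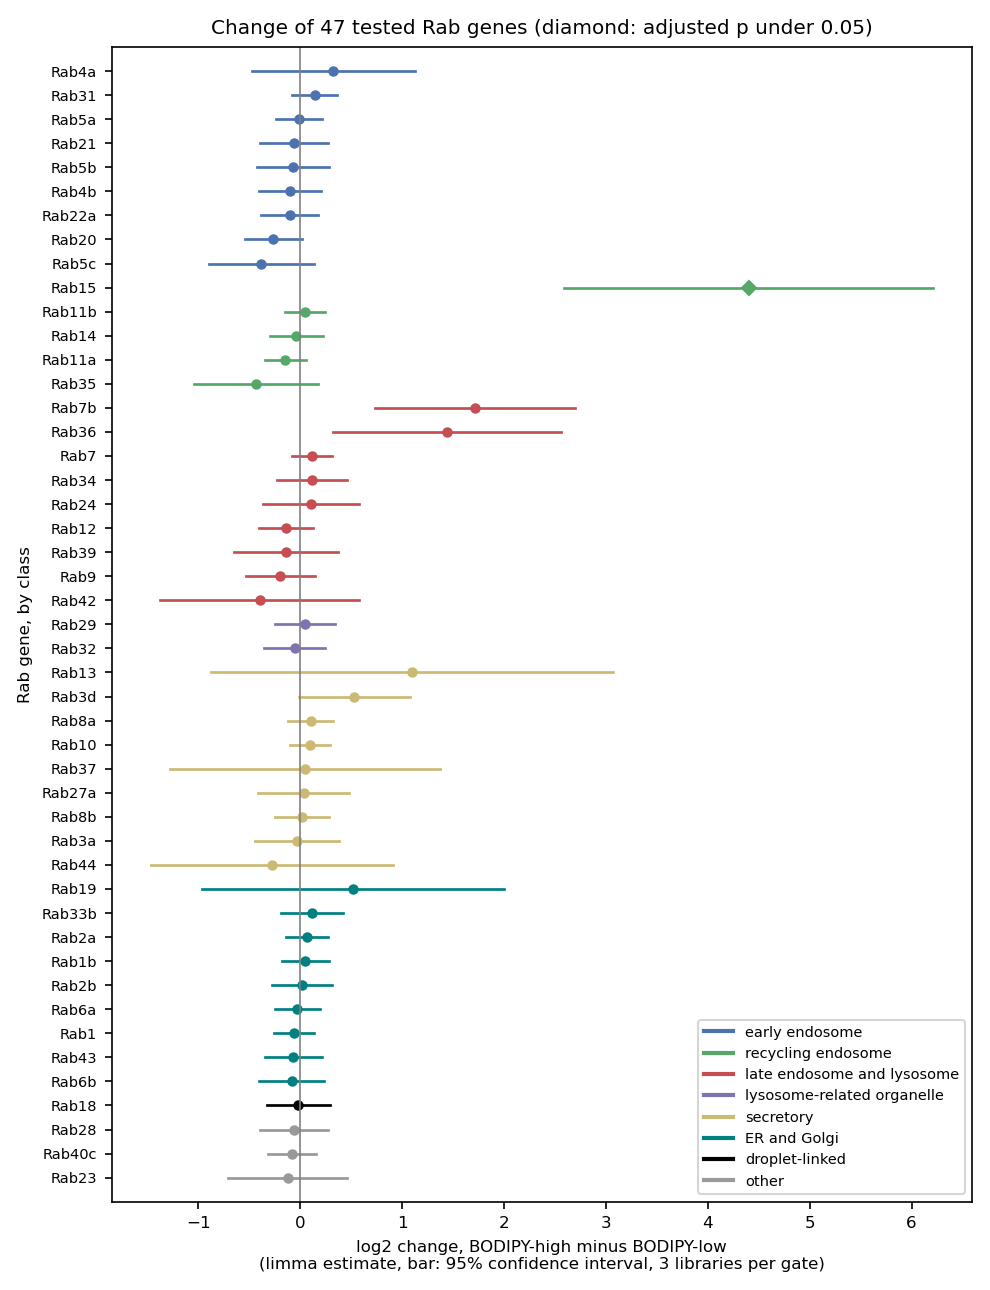
The log2 change between gates (x axis, BODIPY-high minus BODIPY-low) is drawn for each of the 47 tested Rab genes, grouped by class, with points for the limma estimate and bars for the 95% confidence interval over 3 libraries per gate. Most points sit near 0 with short bars, and Rab15 (a diamond, the only call of this fit without a block, of a gene with 0 reads in BODIPY-low), Rab7b and Rab36 lie to the right with intervals that leave out 0.

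Together the Rab genes took 0.402%, 0.415% and 0.415% of normalized counts in BODIPY-low libraries 1, 2 and 3, and 0.412%, 0.437% and 0.412% in BODIPY-high. The ranges of the gates overlapped. Of the members, 29 had a mean of at least 1000 normalized counts over the 6 libraries, 11 of 100 to 1000 and 16 under 100, and 49 had reads in every library. The 9 members that were not tested had at most 19.0 normalized counts in any library. Among these, chosen for mention after their values were seen, the libraries of Rab26 did not overlap as higher in BODIPY-high (2.19, 0 and 4.21 against 6.01, 9.97 and 6.44 normalized counts) and those of Rab33a as lower (17.6, 5.16 and 5.26 against 3.00, 2.99 and 4.60). These counts are low, and the lowest of them lie near or under the limit that a count of 0 allows. Rab17, Rab3c and Rab9b, which the GENCODE annotation also lists, were not analysed here.

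Levels of different genes were compared as normalized counts per kilobase of exon. On this scale the highest member was Rab2a, of the ER and Golgi, at 4131. Rab7 (3944), Rab32 (3677), Rab8b (3555) and Rab31 (3326) followed, so that the 5 highest levels came from the ER and Golgi, late endosome, lysosome-related, secretory and early endosome classes. Rab18 ranked 19 of 56 with 684. The plot of levels by library shows members of every large class above 1000 per kilobase. It also shows a lower tail under 10 in the recycling, late endosome, lysosome-related, secretory and Golgi classes. Rab40b and Rab39b, which are in none of these classes, were under 10 too.

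**Figure D2:**
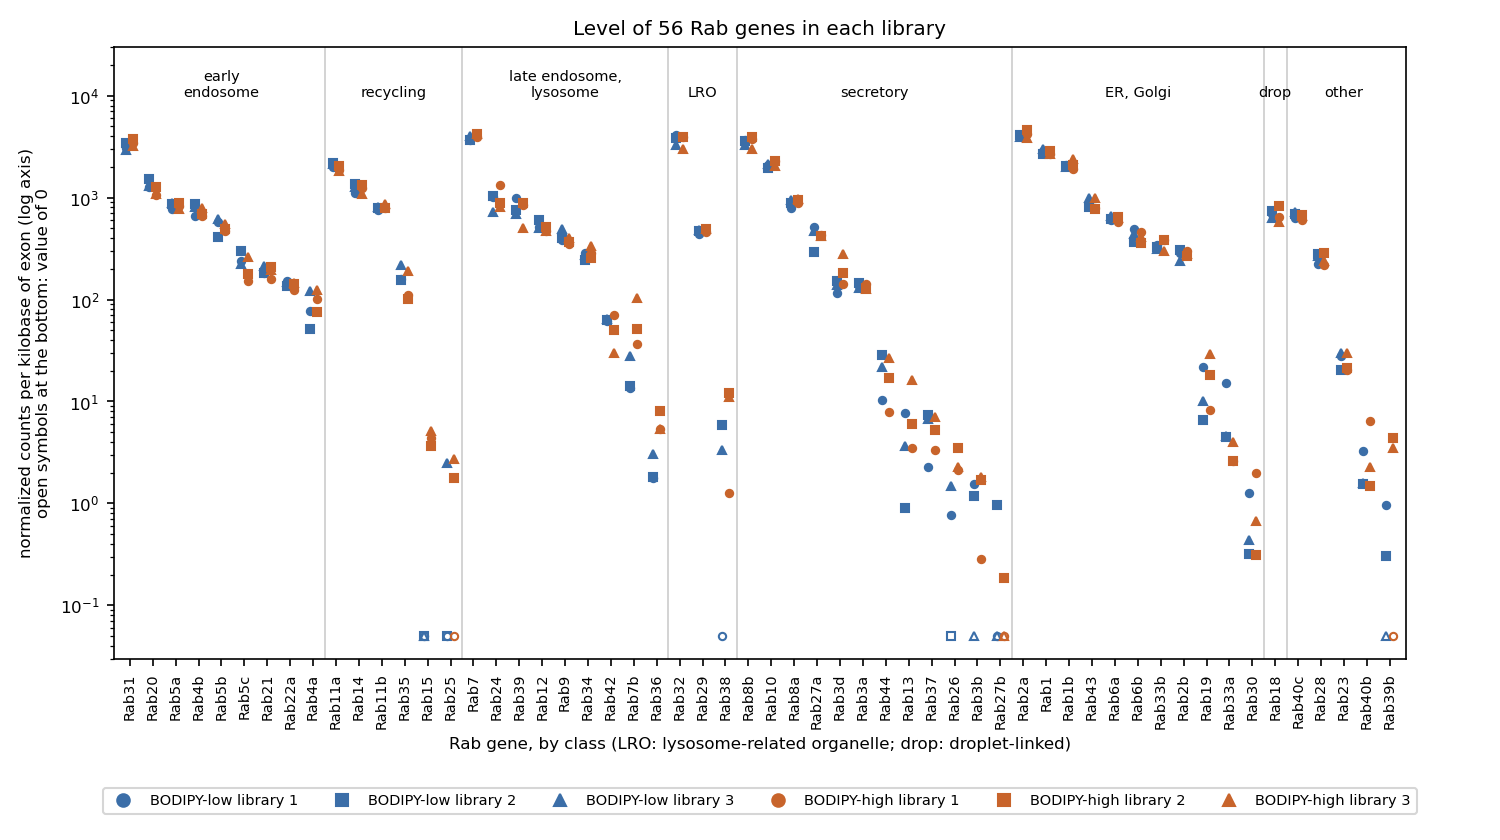
The level of each of the 56 Rab genes is shown in each library as normalized counts per kilobase of exon on a log axis, ordered by class and by level, with blue for BODIPY-low, orange for BODIPY-high and the symbol for the library number. The blue and orange symbols overlap for nearly every member above 100 per kilobase, and Rab15 has all 3 blue symbols at 0.

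Promoter sequence was inspected for motifs of factors that act in these cells. The letters CACGTG, the core of the CLEAR element that the lysosomal regulator TFEB and its relatives bind, and GGAAGT, the core of the sites of PU.1 and other ETS factors of myeloid cells, were searched on both strands in the 250 bases before the RefSeq start. A start was listed for 45 members, and not for Rab18, Rab26, Rab27b, Rab2a, Rab30, Rab36, Rab37, Rab38, Rab44, Rab4a and Rab7b. CACGTG was found in 5 of 45 members (11.1%, Rab20, Rab21, Rab23, Rab27a and Rab5a), beside 6.86% of 27025 genes with such a window. Its longer form TCACGTGA, which contains it, was found in Rab21 and Rab5a (4.44%, beside 0.907%). GGAAGT was found in 10 of 45 members (22.2%, beside 22.2%), and the longer GAGGAAGT, which contains it, in Rab2b and Rab32 (4.44%, beside 2.79%). A match is a description of the letters and shows no binding. The windows of 5 members follow, from RefSeq on GRCm38.p6, written 5′ to 3′ in the direction of the gene, with each CACGTG or GAGGAAGT in capitals. Rab15 is shown as the only member called in the fit without a block (chr12:76822525-76822774, minus strand, 1 of 4 starts listed, with none of the motifs). Rab20 is shown as the only tested member that was lower without overlap (chr8:11478641-11478890, minus strand, motif starting 46 bases before the start). Rab5a (chr17:53478984-53479233, plus strand, motifs 235 and 95 bases before the start, of which only that at 95 is in the longer form) and Rab21 (chr10:115315592-115315841, minus strand, 30 bases) hold the longer CLEAR letters. Rab32 (chr10:10558208-10558457, minus strand, 43 bases) holds the longer ETS letters and has the third highest level per kilobase.
Rab15: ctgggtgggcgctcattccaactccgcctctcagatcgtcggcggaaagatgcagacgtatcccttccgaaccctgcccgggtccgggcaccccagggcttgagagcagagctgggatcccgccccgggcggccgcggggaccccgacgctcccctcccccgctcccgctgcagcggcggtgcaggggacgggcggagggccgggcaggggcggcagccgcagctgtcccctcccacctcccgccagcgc
Rab20: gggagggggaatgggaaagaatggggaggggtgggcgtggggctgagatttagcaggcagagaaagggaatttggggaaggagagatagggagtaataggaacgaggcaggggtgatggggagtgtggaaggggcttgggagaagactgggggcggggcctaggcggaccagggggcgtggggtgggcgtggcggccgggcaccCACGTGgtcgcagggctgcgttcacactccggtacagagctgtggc
Rab5a: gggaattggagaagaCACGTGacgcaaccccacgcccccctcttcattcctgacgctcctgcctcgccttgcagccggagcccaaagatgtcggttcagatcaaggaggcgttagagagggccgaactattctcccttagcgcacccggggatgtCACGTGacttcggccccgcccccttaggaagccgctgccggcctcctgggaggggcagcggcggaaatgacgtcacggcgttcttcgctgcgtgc
Rab21: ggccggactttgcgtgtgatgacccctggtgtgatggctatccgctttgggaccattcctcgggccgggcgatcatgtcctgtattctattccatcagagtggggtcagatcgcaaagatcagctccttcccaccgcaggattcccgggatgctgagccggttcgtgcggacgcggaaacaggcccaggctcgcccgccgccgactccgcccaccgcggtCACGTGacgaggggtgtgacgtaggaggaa
Rab32: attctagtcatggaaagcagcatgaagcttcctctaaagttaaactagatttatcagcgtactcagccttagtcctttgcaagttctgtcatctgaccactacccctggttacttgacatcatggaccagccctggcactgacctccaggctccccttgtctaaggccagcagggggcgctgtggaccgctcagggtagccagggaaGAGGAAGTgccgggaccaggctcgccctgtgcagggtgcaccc

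The droplet-linked member was examined first. Rab18 (chromosome 18, 6733905 to 6794429, plus strand) had 4696, 5059 and 4326 normalized counts in BODIPY-low libraries 1, 2 and 3, and 4411, 5661 and 3955 in BODIPY-high. The BODIPY-high libraries spanned the whole BODIPY-low range and held both the highest and the lowest value. The means were 4694 ± 367 and 4676 ± 883 (SD, n = 3 each), with a log2 change of -0.02 ± 0.14 (SE), a 95% confidence interval of -0.33 to 0.29 and an adjusted p of 0.986 (limma). The log2 change turned to 0.0049 under scaling by library totals. Of all Rab counts, Rab18 took 2.66% to 3.45% in any library. The counts of 5 members that are also described on droplets but keep another class here (Rab8a, Rab10, Rab7, Rab32 and Rab40c) gave a median log2 change of 0.10, none was called, and all 5 confidence intervals lay within 0.5 of 0. Their sum was 32051 ± 452 normalized counts in BODIPY-low and 33242 ± 1384 in BODIPY-high. Neither Rab18 nor a member of the wider droplet set was called between gates that were sorted by a dye of neutral lipid. Among all tested genes 2.03% were called higher and 0.0235% lower, so few genes of any kind were called.

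The genes that act on or beside Rab18 at droplets were taken as a list of 12, all tested. None was called in the fit without a block, and 10 had a change above 0 (49.2% of all tested genes). The gates did not overlap for 3 as higher (10.4%), and 4 had an unadjusted p under 0.05 as higher (8.03%). The median log2 change was 0.14, beside -0.004 for all tested genes. Those 4 were the droplet genes Plin3, Acsl3 and Plin2, and Rab3gap2. The list was chosen with earlier results of these data known, so these shares are a description and no test of Rab18 partners. Rab3gap1 and Rab3gap2 together form the exchange factor of Rab18. Rab3gap2 had 1999, 1944 and 2147 normalized counts in BODIPY-low and 2166, 2524 and 2627 in BODIPY-high, all above the BODIPY-low libraries (2030 ± 105 against 2439 ± 242, adjusted p 0.452, limma). Rab3gap1 overlapped between gates at 3292 ± 86.3 and 3441 ± 165. Tbc1d20, a GTPase-activating protein for Rab18, overlapped too at 1508 ± 88.5 and 1619 ± 160. Rab3gap1, Rab3gap2, Tbc1d20 and the partners Nbas, Rint1, Bscl2 and Dgat1 were named after their values were seen.

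Among the droplet proteins of that list, Plin3, a perilipin that coats nascent droplets, had 689, 880 and 949 normalized counts in BODIPY-low and 1117, 1177 and 1722 in BODIPY-high. The gates did not overlap. The log2 change was 0.66 ± 0.19 (SE) with an adjusted p of 0.194 (limma), 0.0124 with the library number as a block, and 0.0375 with DESeq2 on recovered reads. The summed macrophage, neutrophil and oligodendrocyte markers were likewise highest in library 3 of each gate, and their part in the Plin3 difference was not tested. Acsl3, which activates fatty acids at forming droplets, had 335 ± 48.4 against 499 ± 113 normalized counts without overlap (log2 change 0.56, adjusted p 0.382). Plin2, the common droplet coat protein, had 2111, 2110 and 2353 against 2317, 2808 and 3427, where BODIPY-high library 1 lay below BODIPY-low library 3 (log2 change 0.36, adjusted p 0.407). The tether subunits Nbas and Rint1 and the seipin gene Bscl2 had log2 changes of -0.04, -0.06 and 0.05. Dgat1, which makes triglyceride, stood at 1877 ± 330 and 1877 ± 175 normalized counts.

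In the early endosome class all 9 members were tested, 2 had a change above 0 (49.2% of all tested genes), none was called, and the median log2 change was -0.07. The summed class had 24893 ± 891 normalized counts in BODIPY-low and 25351 ± 1294 in BODIPY-high. Rab5a, Rab5b and Rab5c, which drive fusion of incoming vesicles with the early endosome, overlapped between gates. Rab5a had 4035, 4568 and 4678 normalized counts against 4364, 4714 and 4106 (log2 change -0.01, adjusted p 0.990, limma). Rab5b had 2260 ± 456 against 2119 ± 162 (log2 change -0.07). Rab5c had the lowest estimate of the class, with 528, 658 and 485 against 335, 394 and 575 (log2 change -0.38 ± 0.23 SE, adjusted p 0.663), and BODIPY-high library 3 lay within the BODIPY-low range. Per kilobase, Rab5a supplied 48.2% to 57.2% of the 3 genes' level in any library, Rab5b 26.2% to 36.7% and Rab5c 10.5% to 19.0%.

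Rab20, which takes part in phagosome maturation and responds to interferon in macrophages, was the only tested member that was lower without overlap between gates (chromosome 8, 11453518 to 11478710, minus strand). It had 1763, 2127 and 1813 normalized counts in BODIPY-low and 1484, 1760 and 1502 in BODIPY-high. The highest BODIPY-high value and the lowest BODIPY-low value lay close together. The log2 change was -0.26 ± 0.12 (SE), with a confidence interval of -0.54 to 0.01 and an adjusted p of 0.515 (limma), so it did not pass. With the library number as a block the unadjusted p of Rab20 was 0.0156 and the adjusted p 0.153 (limma), so it did not pass there either. The annotated exons of Rab20 share 25.6% of their length with a noncoding gene on the opposite strand, and without strand their reads cannot be told apart.

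Rab31, an early endosome and trans-Golgi Rab, was the most abundant of the class per kilobase. It had 11815, 13049 and 11288 normalized counts against 13230, 14357 and 12352, higher in BODIPY-high within each library number but overlapping overall (log2 change 0.14, adjusted p 0.716, limma). Rab4a, of fast recycling, had 136, 89.7 and 212 against 177, 134 and 216 (log2 change 0.33, interval -0.48 to 1.13). Rab21, of integrin traffic, and Rab22a, of early endosomal sorting, had log2 changes of -0.07 and -0.10. These 4 members overlapped between gates.

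The recycling class held the only call of the fit without a block. Rab15 (chromosome 12, 76797960 to 76822908, minus strand) is a Rab of early and recycling endosomes. It was at 0 in all 3 BODIPY-low libraries and at 20.0, 17.0 and 23.9 normalized counts in BODIPY-high libraries 1, 2 and 3, which were 20, 17 and 26 recovered reads. Every read of Rab15 was thus in the BODIPY-high gate. The level was at least 15.2-fold higher by the exact 95% lower limit of the ratio, and 19.2 times a floor of 3 reads over the BODIPY-low group, for counting error only. The fitted log2 change was 4.40 ± 0.80 (SE) with an adjusted p of 0.0294 (limma), 0.0303 with the library number as a block, 0.0385 with edgeR and 0.00286 with DESeq2. Rab15 passed the filter on low values only through the BODIPY-high libraries, so a gene that passed in this way had to differ, and its level ranks 50 of 56 per kilobase. The adjusted p was 0.0611 without BODIPY-low library 1, 0.0667 without BODIPY-low library 2 and 0.0907, 0.158 and 0.155 when library 1, 2 or 3 of BODIPY-high was left out, and the call was kept only without BODIPY-low library 3 (0.0401). The summed choroid plexus markers were likewise lower in all BODIPY-low than in all BODIPY-high libraries. So were the sums for macrophages, astrocytes, oligodendrocytes, their precursors and neurons. The part of these markers in the Rab15 result was not tested.

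The other recycling members showed no such step. Rab11a, the main Rab of the recycling endosome, had 6013, 6531 and 6380 normalized counts against 5557, 6125 and 5448. It was lower in BODIPY-high within each library number, yet BODIPY-high library 2 lay above BODIPY-low library 1 (log2 change -0.14, adjusted p 0.677, limma). Rab14, of traffic between Golgi and endosomes, had 16915 ± 1671 against 16493 ± 1713 (log2 change -0.04). Rab35, of fast recycling from the plasma membrane, had 444, 435 and 616 against 312, 286 and 541 (log2 change -0.43 ± 0.27 SE, adjusted p 0.680), with BODIPY-high library 3 inside the BODIPY-low range. With the library number as a block the unadjusted p of Rab35 was 0.0221 and the adjusted p 0.184 (limma). Of the 6 members of the class 5 were tested, and the median log2 change was -0.04.

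In the late endosome and lysosome class, 9 of 9 members were tested, and 5 had a change above 0 (49.2% of all tested genes). None was called in the fit without a block, and the median log2 change was 0.11. The gates did not overlap for 2 of them, Rab7b and Rab36, both higher in BODIPY-high, where 10.4% of all tested genes were higher without overlap. The summed class had 17620, 17055 and 17301 normalized counts in BODIPY-low and 18359, 18543 and 17544 in BODIPY-high, so that BODIPY-high library 3 lay within the BODIPY-low range (17325 ± 283 against 18148 ± 532). Most of that sum was Rab7, the Rab that matures late endosomes and recruits the machinery of lysosome fusion. Rab7 had 9580, 9478 and 10599 against 10175, 10975 and 10959, higher in BODIPY-high within each library number and overlapping overall (log2 change 0.12, interval -0.08 to 0.31, adjusted p 0.766, limma). Rab9, of transport from late endosomes to the Golgi, had 744 ± 99.7 against 647 ± 45.9 (log2 change -0.19, adjusted p 0.769).

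Rab7b (chromosome 1, 131688695 to 131715439, plus strand) is a late endosomal and trans-Golgi Rab that lowers Toll-like receptor signals in macrophages. It had 62.5, 65.0 and 128 normalized counts in BODIPY-low and 170, 236 and 474 in BODIPY-high. All 3 BODIPY-high libraries lay above all BODIPY-low libraries, and library 3 was the highest of each gate. The means were 85.3 ± 37.4 and 293 ± 160 (SD, n = 3 each), a 3.44-fold difference that was 2.38-fold without BODIPY-high library 3. The log2 change was 1.72 ± 0.43 (SE), with a confidence interval of 0.74 to 2.70 and an adjusted p of 0.110 (limma), so it did not pass. It passed with the library number as a block (adjusted p 0.00266) and with DESeq2 on recovered reads (0.00308), and not with edgeR (0.122). The summed macrophage, neutrophil and oligodendrocyte markers had the same order of libraries 3, 2, 1 within BODIPY-high and likewise the highest BODIPY-low value in library 3. Their part in the Rab7b difference was not tested. Beside Rab7, Rab7b gave 0.367% to 0.679% of their joint level per kilobase in BODIPY-low and 0.935% to 2.38% in BODIPY-high.

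**Figure D3:**
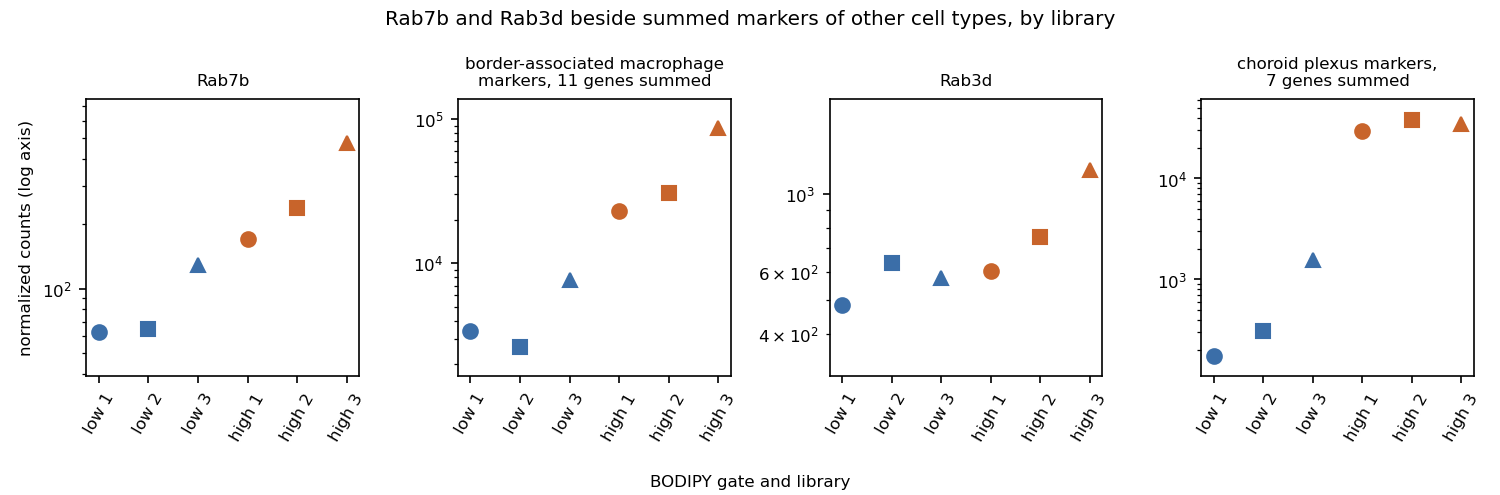
Normalized counts per library (y axes, log scale, each panel with its own range) are shown for Rab7b, the summed 11 border-associated macrophage markers, Rab3d and the summed 7 choroid plexus markers, with blue for BODIPY-low and orange for BODIPY-high. Rab7b and the macrophage sum both peak in BODIPY-high library 3 (474 and 86138), while the choroid plexus sum is highest in BODIPY-high library 2 (38310).

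Rab36, a Golgi and lysosome-positioning Rab (chromosome 10, 75037058 to 75054748, plus strand), was low, with 11.0, 11.3 and 19.0 normalized counts in BODIPY-low and 33.0, 49.9 and 33.1 in BODIPY-high. The gates did not overlap. The 2.81-fold difference in means gave a log2 change of 1.44 ± 0.49 (SE), with an interval of 0.32 to 2.56 and an adjusted p of 0.301 (limma), and it rests on 39 reads in BODIPY-low and 119 in BODIPY-high. It passed neither with the block (0.173) nor with edgeR or DESeq2 (0.345 and 0.350). The summed choroid plexus markers were likewise highest in BODIPY-high library 2, and their part in the Rab36 difference was not tested.

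**Figure D4:**
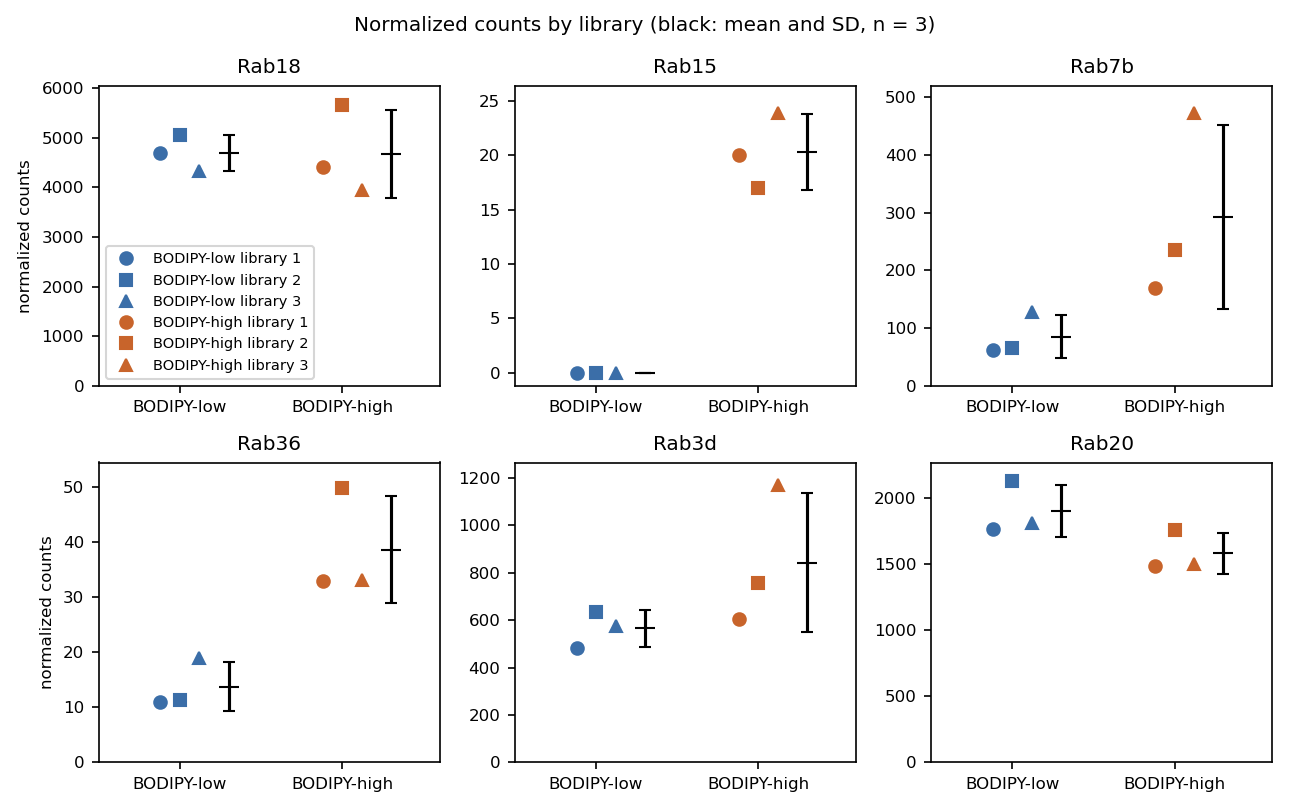
Normalized counts of Rab18, Rab15, Rab7b, Rab36, Rab3d and Rab20 are plotted for each library (points, with the symbol for the library number) beside the mean and SD of each gate (black, n = 3), each panel with its own axis. Rab18 overlaps fully between gates, Rab15, Rab7b and Rab36 have all BODIPY-high points above the BODIPY-low points, and Rab20 has them just below.

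The lysosome-related organelle Rabs guide cargo to specialised lysosomes and, in myeloid cells, to phagosomes and mitochondria. Rab32 had 9720, 8889 and 7656 normalized counts in BODIPY-low and 9225, 9087 and 7028 in BODIPY-high (log2 change -0.06, interval -0.36 to 0.25). Library 3 was the lowest of each gate. Rab29, which activates the kinase Lrrk2 at stressed lysosomes, had 683 ± 35.7 against 704 ± 20.8 (log2 change 0.04). Rab38, the close relative of Rab32 in pigment cells, was not tested, with at most 18.9 normalized counts in any library. Of the level per kilobase of these 3 genes, Rab32 supplied 85.8% to 90.5% in every library.

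The secretory class had 12 members, of which 9 were tested. None was called, 7 had a change above 0 (49.2% of all tested genes), and the median log2 change was 0.05. No tested member was free of overlap (10.4% higher and 5.95% lower among all tested genes). The 5 tested Rabs of regulated secretion had a median of 0.04 and the 4 of delivery to the plasma membrane one of 0.10. Summed, the class had 30667 ± 602 normalized counts in BODIPY-low and 31978 ± 2333 in BODIPY-high.

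Rab3d, a Rab of secretory granules in nonneuronal cells (chromosome 9, 21907491 to 21918192, minus strand), had the smallest p of the class. It had 483, 634 and 577 normalized counts in BODIPY-low and 603, 756 and 1170 in BODIPY-high. BODIPY-high library 1 lay under BODIPY-low library 2, and library 3 of BODIPY-high stood above the rest. The ratio of means was 1.49 with all libraries and 1.20 without BODIPY-high library 3. The log2 change was 0.53 ± 0.24 (SE), with an interval of -0.01 to 1.07 and an adjusted p of 0.504 (limma). With the library number as a block the unadjusted p of Rab3d was 0.00991 and the adjusted p 0.121 (limma). Its share of the joint level of Rab3a, Rab3b and Rab3d per kilobase was 45.8% to 51.6% in BODIPY-low and 49.98%, 57.9% and 68.3% in BODIPY-high libraries 1, 2 and 3. The summed markers of macrophages, monocytes, neutrophils, oligodendrocytes and their precursors were also highest in BODIPY-high library 3, and their part in the Rab3d values was not tested.

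Rab3a, the synaptic vesicle Rab, was detected at 300, 324 and 287 against 319, 288 and 284 normalized counts (log2 change -0.03, adjusted p 0.983, limma). The 6 neuronal markers summed stood at 23.2 to 55.7 in BODIPY-low and 77.8 to 102 in BODIPY-high, with Syt1 at 0 in all BODIPY-low libraries. Rab27a, which docks lysosome-related and secretory vesicles, had 2010, 1130 and 1826 against 1669, 1629 and 1642 (log2 change 0.04, adjusted p 0.982). The BODIPY-low libraries enclosed the BODIPY-high libraries. Rab27b, its paralogue of platelets and secretory cells, was not tested, with reads in BODIPY-low library 2 (10.3 normalized counts) and BODIPY-high library 2 (1.99) and 0 in the other 4. Rab8a and Rab10, which deliver membrane to the cell surface and are substrates of Lrrk2, both had a log2 change of 0.10 (adjusted p 0.840 and 0.816). Rab8b had 16697 ± 951 against 16950 ± 2326 normalized counts. Rab13, of epithelial junctions, was too low to place, at 9.35 ± 7.79 against 19.9 ± 15.7 (log2 change 1.09, interval -0.88 to 3.07). Rab44, a granule Rab of bone marrow cells, was picked after its values were seen. It had 52.7, 144 and 110 normalized counts in BODIPY-low and 40.0, 85.7 and 135 in BODIPY-high. The summed 6 neutrophil markers beside it were 34719, 104959 and 112023 against 42216, 62892 and 163364, with library 1 the lowest of each gate for both. The 5 monocyte markers summed to 9663, 24332 and 24081 against 9109, 20239 and 32116. Library 1 was again the lowest of each gate, as it was for the choroid plexus sum. The part of these markers in the Rab44 values was not tested.

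The ER and Golgi class had 11 members, of which 9 were tested, with a median log2 change of 0.02. None was called and no tested member was free of overlap (10.4% higher and 5.95% lower among all tested genes), and 8 of 9 intervals lay within 0.5 of 0. Rab1 (named Rab1a in RefSeq) and Rab1b, which carry vesicles from the ER to the Golgi, had log2 changes of -0.06 and 0.05. Rab2a, which also helps lysosome fusion, had 8591 ± 176 against 9031 ± 786 normalized counts (log2 change 0.07). Rab6a, of traffic within and out of the Golgi, had 2338 ± 127 against 2290 ± 115 (log2 change -0.03). Rab33b, of the Golgi and autophagosome formation, had 1155 ± 41.7 against 1258 ± 174 (log2 change 0.11). Rab19, the least abundant tested member here, had 20.0 ± 12.4 against 29.3 ± 16.5, with an interval of -0.96 to 2.00 that sets little limit. In the remaining group, Rab40c, a ubiquitin ligase adaptor, had 2114 ± 146 against 1998 ± 109 (log2 change -0.08). Rab28 and Rab23, both known from primary cilia, had log2 changes of -0.06 and -0.12.

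Set side by side, the classes named for comparison had median log2 changes of -0.07 (early endosome), 0.11 (late endosome and lysosome), 0.05 (secretory) and -0.02 (Rab18). With 9 tested members each class median is the value of 1 gene. These genes were Rab5b (early endosome, interval -0.43 to 0.28), Rab24 (late endosome, -0.37 to 0.58) and Rab37 (secretory, -1.28 to 1.37). Rab37 had a mean of 28.4 normalized counts, and the exons of Rab24 overlap those of Prelid1. The members of a class are not replicates of a condition, and the difference between these medians was not tested. None of these 4 groups held a call in the fit without a block. With the library number as a block, Rab7b of the late endosome class was called (adjusted p 0.00266, limma), and no member of the other 3. Members without overlap were 1 of 9 in the early endosome class (lower), 2 of 9 in the late endosome class (higher), 0 of 9 in the secretory class and 0 of 1 for Rab18, read beside 10.4% higher and 5.95% lower among all tested genes.

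Within paralogue families the leading gene was stable across libraries. Per kilobase, Rab11a gave 67.8% to 73.3% of the Rab11a and Rab11b level, Rab8b 75.7% to 82.4% of the Rab8a and Rab8b level, and Rab6a 54.6% to 64.0% of the Rab6a and Rab6b level. Rab2a held 93.0% to 94.5% against Rab2b. The Rab3 family was the exception. Rab3a led in BODIPY-low library 1 (53.6%), and Rab3d led narrowly in BODIPY-low libraries 2 and 3 (50.8% and 51.6%). In BODIPY-high library 1, Rab3d and Rab3a were nearly level (49.98% and 49.92%). Rab3d led in BODIPY-high libraries 2 and 3 (57.9% and 68.3%). Reads that fit near-identical stretches of paralogues may be divided by the authors' counting in a way that is not given in the sources used here, so these shares are uncertain to that extent.

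**Figure D5:**
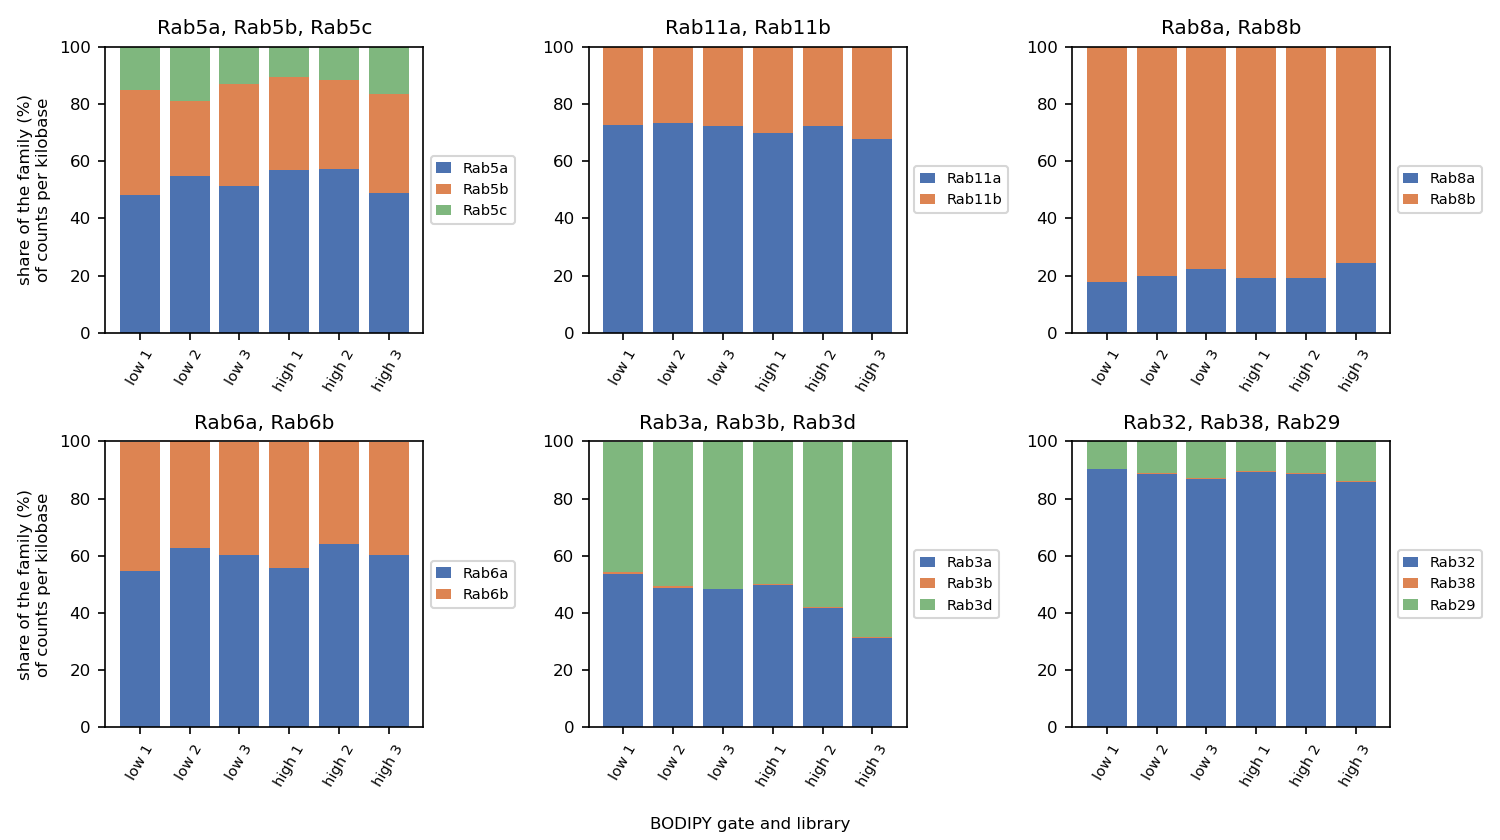
Stacked bars give the share of each gene (y axis, % of the family's normalized counts per kilobase of exon) in 6 Rab families for each library (x axis, low for BODIPY-low and high for BODIPY-high). Shares are much alike across libraries for Rab11, Rab8, Rab6 and Rab32 families, and Rab3d reaches 68.3% in BODIPY-high library 3.

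The genes of the Rab cycle and those beside Rab18 at droplets were taken as 7 lists that together name 138 genes. Of these 134 were in the table and 126 were tested. The Rab18 list also holds droplet and lipid genes such as Plin2, Plin3, Acsl3 and Dgat1, which do not run the cycle. None was called in either direction in the fit without a block, where 2.03% of all tested genes were called higher and 0.0235% lower. Of the tested genes 85 had a change above 0 (49.2% of all tested genes), 17 were higher and 2 lower without overlap (10.4% and 5.95%), and 15 were higher and 0 lower at an unadjusted p under 0.05 (8.03% and 2.27%). The median log2 change was 0.08. With the library number as a block, and with DESeq2, 1 of them was called higher, Plin3 of the Rab18 list. Among all tested genes 4.37% were called higher with the block and 3.63% with DESeq2. For the lists other than the Rab18 partners, the medians were -0.02 for prenylation and extraction (8 tested), 0.06 for exchange factors (35), 0.08 for GTPase-activating proteins (37), 0.14 for endosome and lysosome effectors (26), 0.17 for secretory effectors (7) and 0.09 for kinases and the phosphatase (4).

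Rabac1 and Rabggtb were named among the genes that lipidate Rabs and move them between membranes. Rabac1, a Rab acceptor, had 4398, 4370 and 5228 normalized counts against 3896, 3616 and 4550 (log2 change -0.22, adjusted p 0.616, limma). Rabggtb, a subunit of the prenyl transferase, had 361 ± 63.0 against 301 ± 17.6 (log2 change -0.25). Both overlapped between gates.

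Among the exchange factors, Dennd1a, which activates Rab35, had 1084, 926 and 852 normalized counts against 1312, 1185 and 1478. The gates did not overlap (log2 change 0.47 ± 0.14 SE, adjusted p 0.195, limma), while Rab35 itself had an estimate below 0. Dennd2d had 49.9 ± 13.6 against 111 ± 18.8 (log2 change 1.16, adjusted p 0.198), also without overlap. Among the GTPase-activating proteins, Tbc1d4, which holds back Rab8a and Rab10 in the traffic of glucose transporters, had 603, 503 and 494 against 772, 616 and 1145 (log2 change 0.62, adjusted p 0.344). Rabgap1l (197 ± 22.3 against 278 ± 15.9) and Tbc1d8 (4269 ± 236 against 4995 ± 367) had log2 changes of 0.50 and 0.23. The libraries of these 3 did not overlap either, and none passed.

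Of the effectors at endosomes and lysosomes, Vps39, a subunit of the HOPS tether that acts with Rab7, had 3677, 3563 and 3747 normalized counts against 4573, 4144 and 4246, without overlap (log2 change 0.24, adjusted p 0.352, limma). Plekhm2, a lysosome motor adaptor, had 723 ± 85.0 against 997 ± 146 without overlap (log2 change 0.46, adjusted p 0.295). Plekhm1, an adaptor between Rab7 and HOPS, overlapped at 1368 ± 132 and 1762 ± 373 (log2 change 0.35). Among the secretory effectors, Sytl1, a Rab27 effector, had 2.19, 15.5 and 9.48 against 16.0, 27.9 and 46.9, and Myrip, which links Rab27a to myosin, 6.32 ± 5.56 against 27.6 ± 19.5. Both were low, with log2 changes of 1.81 and 1.96 and adjusted p of 0.454 and 0.462. Exoc6, the exocyst subunit that binds Rab8 and Rab11, was lower without overlap, at 2408 ± 136 against 2149 ± 119 (log2 change -0.16, adjusted p 0.670). Lrrk2, the kinase of Rab8a, Rab10 and Rab29 family members, had 14.3, 28.9 and 62.1 against 50.1, 55.8 and 209, overlapping between gates and highest in library 3 of each (log2 change 1.47 ± 0.68 SE, adjusted p 0.519). With the library number as a block the unadjusted p of Lrrk2 was 0.00322 and the adjusted p 0.0594 (limma). Leaving out BODIPY-high library 3 gave a log2 change of 0.81, and leaving out BODIPY-low library 1 gave 0.96. The summed macrophage, neutrophil and oligodendrocyte markers were also highest in library 3 of each gate, and their part in the Lrrk2 values was not tested. Lrrk1 and Tbk1, the kinases of Rab7, had log2 changes of 0.08 and 0.09.

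Some members overlap other genes in the annotation. Without strand, the reads of Rab24 and Prelid1 on the opposite strand (62.4% of the exon length of Rab24), of Rab2b and Gm43766 (59.3%) and of Rab6a and Mrpl48 (19.0%) cannot be told apart, and on the same strand Rab43 shares 75.4% with Gm45140 and Rab4b 65.0% with Gm21983. The values of these members are uncertain to that extent.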

How the data were processed

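RNA was sequenced from 3 BODIPY-low and 3 BODIPY-high libraries, grouped by their titles. Per the series' design text and the submitters' processing notes, the authors checked reads with FastQC 0.11.4, used STAR 2.5.3a for mapping to mm10 and for gene counts, and ran DESeq2. The notes list both mm9 and mm10, and the annotation and strand setting of the counting are not given in the sources used here. SmartSeq and Nextera kits, which the labels name, do not mark strand. The deposited values are normalized counts, a signal that the authors made by dividing each library's counts by a size factor (0.911 to 1.09), and all were whole multiples of 1 step within 0.05 reads (100% in each library), so whole reads were recovered.

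Genes were tested two-sided between gates, with no further term, by the trend method of limma 3.58.1 (R 4.3.3) on log2(normalized count + 1) after a filter of 10 normalized counts in at least 3 libraries, which kept 12767 genes. Fold changes on this scale understate those of low genes. Alternatives were the library number as a block, pseudocounts of 0.5 and 5, no filter, a filter of 50, TMM and library total scaling, edgeR 4.0.16 and DESeq2 1.42.0 on recovered reads, and each library left out. Same-numbered libraries deviated together (correlations 0.354, 0.244 and 0.363, others -0.255 to -0.095), so the numbers pair the samples. The main fit leaves this pairing out, and the fit with the library number as a block takes it in. Scripts were tested on simulated data.

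The members, classes and lists were chosen with earlier results of these data known. The naming rule took each called Rab gene, a set of Rab genes of known compartments, up to 3 of smallest p per class or list, the 5 highest per kilobase and tested members without overlap. Results of some single genes that it takes are not reported here. Gene positions and exon lengths are from GENCODE M21 (GRCm38, the same assembly as mm10) for all 56 members, with Rab1 matched as Rab1a.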

Additional observations from a re-analysis of the deposited data

How the results depend on the processing

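Over all tested genes, 259 were called higher and 3 lower. With the replicate number as a block, since the numbers pair the samples, the counts were 558 and 59, and 261 of the 262 calls were kept. With DESeq2 they were 464 and 32, with a filter of 50 they were 131 and 1, and scaling by library totals or edgeR gave 1 lower. Leaving out 1 library gave 15 to 271 higher (15 and 59 when library 2 or 3 of BODIPY-high was absent) and 0 to 2 lower. Rab genes called higher were 1, against 2 with the block, 2 with DESeq2, 0 with a filter of 50 (at which Rab15 was not tested) and 0 to 1 with a library left out. Genes of the Rab cycle and droplet lists called higher were 0, against 1 with the block and 1 with DESeq2, in both the droplet coat gene Plin3. The block added the calls of Rab7b and Plin3 and changed no other call among the 56 named genes. No Rab gene or cycle gene was called lower in any setting.

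Of 834 gene and setting pairs, 795 kept direction and call. The sign changed in 30 pairs over 13 genes, all with a log2 change of at most 0.085 in size and none called, and the cause was not tested. Under library total scaling the log2 changes became 0.0049 (Rab18) and 0.014 (Rab5a), under TMM -0.0064 (Rab8b), and for Rab27a -0.019 with edgeR and -0.011 with DESeq2. With a library left out the log2 changes spanned -0.060 to 0.17 for Lrrk1, -0.11 to 0.047 for Rab14, -0.17 to 0.093 for Rab18, -0.035 to 0.12 for Rab1b, -0.15 to 0.051 for Rab21, -0.22 to 0.20 for Rab27a. They spanned -0.17 to 0.034 for Rab28, -0.15 to 0.072 for Rab32, -0.083 to 0.017 for Rab3a, -0.075 to 0.038 for Rab5a, -0.25 to 0.035 for Rab5b, -0.064 to 0.012 for Rab6a and -0.063 to 0.13 for Rab8b. Rab15 lost its call without any library but BODIPY-low library 3. The 9 members under the filter were not tested at this depth. The intervals of Rab3d, Rab4a, Rab7b, Rab13, Rab15, Rab19, Rab35, Rab36, Rab37, Rab42 and Rab44 reached beyond 1 in size on the log2 scale.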
